A study of Mus musculus with 3 samples.

Results

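Interferon-stimulated genes are described here in splenic T cells of the mouse, as a set of 46 genes listed by symbol. All 46 matched 1 gene each among the 55536 genes of the deposited tables, and they were divided into a type I group of 33 genes and a GTPase group of 13 genes. The T cells carried the label CD3 and came from virgin female B6CASTF1/J mice of 66 days, an F1 hybrid whose mother was C57BL/6 and whose father was CAST/EiJ. No treatment, transgene or deletion is named in the labels, and the 3 libraries form 1 group, replicates 1, 2 and 3, each made from 300 ng of total RNA. The labels place 3 biosample records under 1 donor record and do not say that the replicates were separate animals, so every SD and p below may reflect technical spread alone. Since no condition was varied, genes were compared with one another inside a library, and libraries with one another.

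Interferons are secreted proteins that cells release on viral or bacterial infection. Type I interferons signal through the receptor pair Ifnar1 and Ifnar2 to a transcription factor complex that holds Irf9 and binds the interferon-stimulated response element in promoters, while interferon gamma, made largely by T cells and natural killer cells, signals through Ifngr1 and Ifngr2 to factors that bind the gamma-activated sequence. Many type I genes encode antiviral effectors that act on viral RNA, nucleotides or membranes. The guanylate-binding proteins and the immunity-related GTPases (IRG) are large interferon-induced GTPases that act on the vacuoles of intracellular bacteria and parasites. A low level of such transcripts is also kept in resting immune cells by tonic interferon.

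Response elements were looked for in the RefSeq promoter table (GRCm38.p6, the assembly called mm10), which gives 250 bases before to 50 bases after each start. Of the 46 members, 32 had an entry, and Oas2, Mx1, Mx2, Rtp4, Parp9, Parp14, Zbp1, Ifi27, Ifi27l2a, Gbp4, Gbp6, Gbp8, Gbp9 and Iigp1 had none. The core of the interferon-stimulated response element was searched as GAAANNGAAA on both strands, so that it reads TTTCNNTTTC where it lies on the other strand, and the gamma-activated sequence as TTCNNNGAA, which reads alike on both. At least 1 core was present for 19 of the 32 members (59.4%), against 3.99% of the 27025 genes of the table and 3.89% of its 9002 genes that were tested for spread below. Some genes have several starts. Counted by window, 52.6% of 38 member windows and 3.44% of all 32851 windows held a core.

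Windows of 40 bases around the core are shown for up to 3 of the highest and 3 of the lowest members of each group. They come only from members whose core lies upstream of the RefSeq start and outside annotated exons. Chosen for holding the core, they give its letters in genes of different level and do not show how often it occurs. Letters run 5′ to 3′ on the strand of the gene, and capitals mark the core. The first 6 windows come from 5 type I genes, with Ifit3b not repeated because its windows have the letters of Ifit3, and the last 5 come from the 5 GTPase genes with such a window.
Trim30a: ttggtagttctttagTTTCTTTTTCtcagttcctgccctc
Bst2: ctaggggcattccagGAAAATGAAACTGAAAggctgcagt
Oas3: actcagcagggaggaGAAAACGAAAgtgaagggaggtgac
Ifit3: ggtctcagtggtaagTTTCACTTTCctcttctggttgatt
Ifit3 second site: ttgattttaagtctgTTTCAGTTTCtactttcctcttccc
Rsad2: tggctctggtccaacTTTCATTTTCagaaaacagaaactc
Gbp3: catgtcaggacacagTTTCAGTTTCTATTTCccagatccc
Igtp: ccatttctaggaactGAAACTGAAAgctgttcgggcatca
Gbp7: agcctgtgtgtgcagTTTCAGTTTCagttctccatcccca
Gbp5: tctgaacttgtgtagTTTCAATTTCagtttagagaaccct
Irgm2: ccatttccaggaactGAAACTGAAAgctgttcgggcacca

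These windows lie on mm10 at chr7:104465205-104465244 (Trim30a), chr8:71537578-71537617 (Bst2), chr5:120777710-120777749 (Oas3), chr19:34583358-34583397 and chr19:34583392-34583431 (Ifit3) and chr12:26456548-26456587 (Rsad2). The GTPase windows lie at chr3:142559984-142560023 (Gbp3), chr11:58199507-58199546 (Igtp), chr3:142530268-142530307 (Gbp7), chr3:142496754-142496793 (Gbp5) and chr11:58214898-58214937 (Irgm2). Trim30a, Bst2, Oas3 and Rsad2 are on the minus strand and the others on the plus strand. The Gbp5 and Irgm2 windows are upstream of the RefSeq start only. In the annotation M21 of GENCODE they lie inside the spans of these genes, outside exons. In Bst2 and Gbp3 2 cores overlap, so that their capitals run over 16 bases. Both Ifit3 windows occur with the same 40 of 40 bases upstream of Ifit3b, its near-identical neighbour, and the Igtp and Irgm2 windows match at 38 of 40 bases.

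The 2 groups both carried the core. It was present for 12 of the 24 type I members in the table (50%) and for 7 of the 8 GTPase members (87.5%), the exception being Ifi47. Among the type I members without it were Sp100 and Samd9l, the highest type I members with an entry. More than 1 core was found for 10 of the 32 members (31.3%), among them Isg15 with 3, against 0.403% of all genes. The gamma-activated sequence was present for 10 of 32 members (31.3%), 6 of 24 type I and 4 of 8 GTPase, against 9.55% of all genes. Those 4 GTPase members were Gbp5, Gbp7, Igtp and Irgm2. Both motifs were present for 7 of 32 members (21.9%), against 0.614% of all genes. They shared bases in 2 of the 7 member windows that held both and in 24 of the 149 such windows among all promoters. The core was present for 8 of the 14 matched members at a mean of 10 TPM or more (57.1%) and for 11 of the 18 below it (61.1%), where TPM is an abundance scaled by transcript length and library depth. Matches are descriptions of letters, and a window without a match says only that these letters are not in it.

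**Figure D1:**
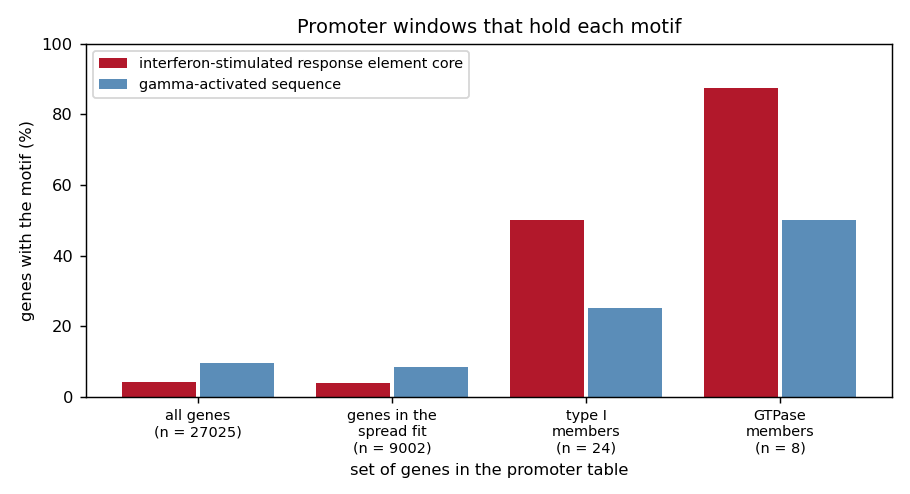
Percent of genes (vertical axis) with the response element core (red) or the gamma-activated sequence (blue) in their promoter windows, for all 27025 genes of the table, its 9002 genes tested for spread, 24 type I members and 8 GTPase members. The red bars stand at 3.99%, 3.89%, 50% and 87.5%.

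The libraries were of like depth, with 15.04 to 16.93 M estimated counts, and all 10 T cell markers exceeded 10 TPM in every library, led by Trbc2 (650 ± 43.3 TPM, mean ± SD, n = 3) and Trac (492 ± 16.4 TPM). Markers of other cells were low but present. Summed TPM was 12.5 to 24.99 for 9 B cell markers, 31.0 to 42.2 for 11 of monocytes and macrophages, 49.4 to 54.8 for 8 of plasmacytoid dendritic cells, 1.99 to 3.97 for 6 of conventional dendritic cells, 6.01 to 6.87 for 7 of neutrophils, 24.4 to 32.6 for 7 of natural killer cells, 42.6 to 97.1 for 7 of the erythroid lineage and 51.6 to 55.6 for 6 of stroma and endothelium. The last sum was nearly all Pecam1 (51.8 ± 2.16 TPM), and Ccr9 (26.0 ± 0.645 TPM) made up much of the plasmacytoid sum. No marker of these lists was at 0 in all 3 libraries. In bulk samples such as these, fewer cells of a type and less RNA per cell cannot be told apart, and a level of any member below is an average over all cells collected.

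Most members were transcribed. At least 1 TPM in every library was reached by 40 of 46 (87.0%), against 21.3% of all genes and 44.7% of protein-coding genes. At least 10 TPM in every library was reached by 24 of 46 (52.2%), against 10.9% of all genes and 25.4% of protein-coding genes. Among detected genes alone the members were 24 of 40, beside 56.8% of protein-coding genes. Their median of mean levels was 12.5 TPM, near the 13.5 TPM of the 9851 protein-coding genes detected. The members spread over more than 2 orders of magnitude, from Sp100 at 224 TPM to Rsad2 at 0.797 TPM. Within that order the ranges of the 3 libraries did not overlap for 6 of the 45 pairs of neighbours: Sp100 above Ifi27l2a, Ifi27l2a above Ifi47, Gbp4 above Samd9l, Zbp1 above Irgm1, Gbp2 above Gbp8, and Gbp5 above Irgm2. For the other 39 pairs the order of neighbours does not hold beyond their spread.

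**Figure D2:**
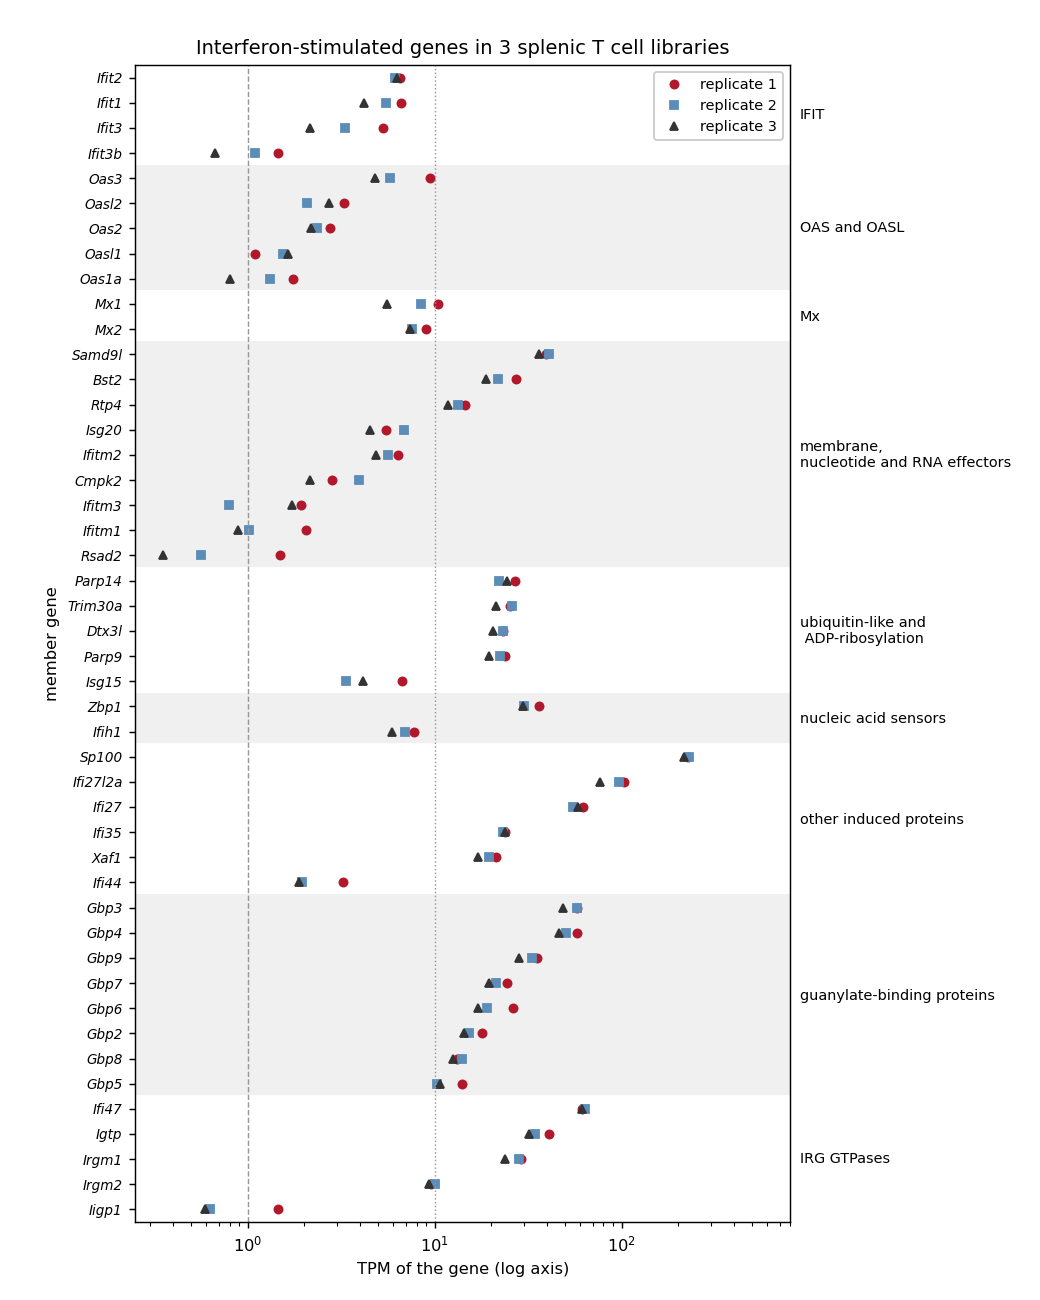
TPM of the 46 members (horizontal log axis) in replicate 1 (circles), replicate 2 (squares) and replicate 3 (triangles), grouped by role, with lines at 1 and 10 TPM. All 8 guanylate-binding proteins lie above 10 TPM, whereas every IFIT and OAS gene lies below it.

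The GTPase group stood above the type I group in each library. Taking the level of a group as the median over its genes of log2(TPM + 1), the GTPase level was 4.54 ± 0.21 and the type I level 2.94 ± 0.21 (n = 3). The difference was 1.65, 1.502 and 1.64 in replicates 1, 2 and 3, a mean of 1.60 ± 0.08, or 3.02-fold on the scale of TPM + 1. It is a description with no test, since the genes were chosen with results known. Guanylate-binding proteins alone stood 1.52 above the type I group and IRG GTPases alone 1.86. The difference did not hold against every type I role, whose levels ran from 1.73 (OAS and OASL) to 5.26 (other induced proteins). IFIT genes stood at 2.40, membrane, nucleotide and RNA effectors at 2.63 and Mx genes at 3.16. Nucleic acid sensors stood at 4.01, and genes of ubiquitin-like modification and ADP-ribosylation at 4.53. At 10 TPM or more in every library were 11 of 13 GTPase genes (84.6%) but 13 of 33 type I genes (39.4%), beside 25.4% of protein-coding genes. The type I group also held the highest 2 members, so the groups differ in their medians and overlap in their ranges.

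**Figure D3:**
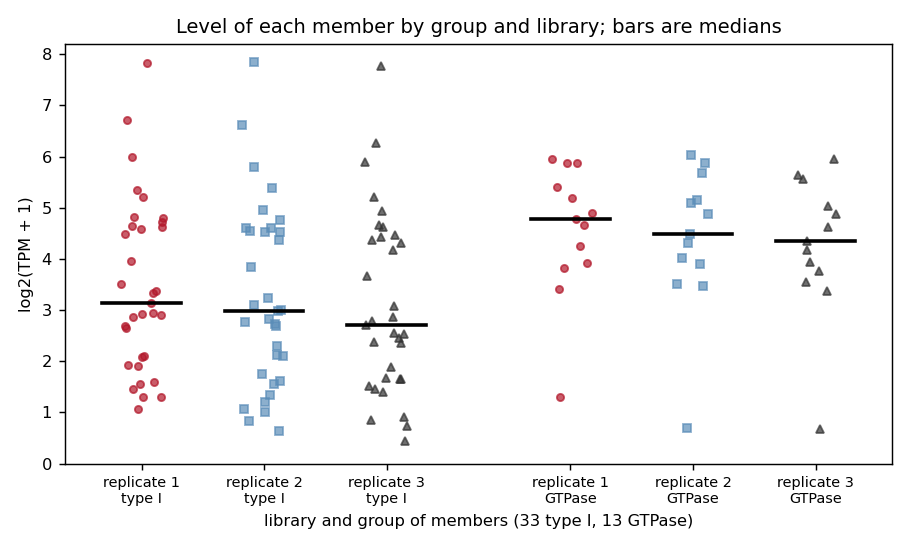
Level of each member as log2(TPM + 1) (vertical axis) for 33 type I and 13 GTPase genes in each replicate, with bars at the medians. The bars of the GTPase group lie 1.65, 1.502 and 1.64 above those of the type I group in replicates 1, 2 and 3, and 1 GTPase gene, Iigp1, lies far below the rest.

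The IFIT genes, 4 neighbours at chr19:34550694-34650009 whose proteins bind foreign RNA ends, were all under 10 TPM. Ifit2 had 6.51, 6.13 and 6.27 TPM in replicates 1, 2 and 3 (6.30 ± 0.192, n = 3), an even level across libraries. Ifit1, which binds RNA lacking host cap methylation, had 6.57, 5.46 and 4.2 TPM (5.41 ± 1.19). Ifit3, a partner of Ifit1, had 5.28, 3.32 and 2.15 TPM (3.58 ± 1.58). Replicate 1 was the highest library and replicate 3 the lowest for the last 2 genes. Ifit3b, at 1.45, 1.09 and 0.67 TPM, was the lowest of the 4. Of the windows of 101 bases along its transcript, 27.1% also occur in Ifit3, and 31.3% of those of Ifit3 occur in Ifit3b, so the split of reads between them is uncertain. The deposited posterior SD was 10.2% of the count of Ifit3b and 3.50% of that of Ifit3.

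Genes of the oligoadenylate synthetase family, which includes synthetases whose products activate the RNA-cleaving enzyme RNase L, were low. Oas3 led with 9.39, 5.80 and 4.77 TPM (6.65 ± 2.43). Oasl2 followed with 3.28, 2.07 and 2.71 TPM (2.69 ± 0.605) and Oas2 with 2.74, 2.35 and 2.18 TPM (2.42 ± 0.287). The last 2 overlapped in range, and Oas3 did not overlap either of them. Oasl1, at 1.10, 1.54 and 1.64 TPM, was the lowest detected gene of the family and had its lowest value in replicate 1, unlike the other 4. Oas1a, at 1.74, 1.31 and 0.80 TPM, was below 1 TPM in replicate 3, and 40.6% of its windows occur in other genes, mostly Oas1g. Oas2, Oas3 and Oas1a lie together at chr5:120730333-120907521.

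The Mx genes encode dynamin-like GTPases that block viral replication, and Mx1 of many laboratory strains is known to be defective. Mx1 had 10.4, 8.42 and 5.57 TPM (8.14 ± 2.45) and Mx2 9.04, 7.55 and 7.41 TPM (8.0 ± 0.903). Their ranges overlapped. The annotation M21 of GENCODE lists Mx1 as protein-coding and Mx2 as a polymorphic pseudogene, and the RefSeq gene table lists both as transcribed pseudogenes. Reads were assigned to the 1 reference genome, so that alleles of CAST/EiJ were not analysed here.

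Effectors that act on membranes, nucleotides or RNA spanned a wide range. Samd9l, a cytoplasmic antiviral and growth-restraining protein, was the highest of the 9 with 39.6, 41.1 and 36.1 TPM (38.9 ± 2.53). Bst2, or tetherin, which holds budding virions at the cell surface, had 27.2, 21.9 and 18.8 TPM (22.6 ± 4.24), and Rtp4, a receptor-transporting protein, 14.5, 13.4 and 11.8 TPM (13.2 ± 1.37). These 3 did not overlap one another. Isg20, an RNA exonuclease, averaged 5.62 ± 1.20 TPM, and Cmpk2, a mitochondrial nucleotide kinase, 2.96 ± 0.898 TPM. The IFITM genes, which restrict entry of enveloped viruses, stood at 5.60 ± 0.730 TPM for Ifitm2, 1.48 ± 0.609 TPM for Ifitm3 and 1.31 ± 0.632 TPM for Ifitm1, and of these only Ifitm2 reached 1 TPM in every library. Of the windows of Ifitm2, 34.6% occur in other genes, mostly Gm45717. Rsad2, or viperin, which makes a chain-terminating nucleotide, was the lowest of all 46 members at 1.48, 0.56 and 0.35 TPM. Its neighbour Cmpk2 at chr12:26442746-26479837, which shares its pathway, was the lowest detected gene of this role at 2.82, 3.92 and 2.14 TPM, with no overlap between the 2 ranges.

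Genes of ubiquitin-like modification and ADP-ribosylation were even among themselves but for Isg15. Parp14, an ADP-ribosyltransferase, had 27.0, 22.0 and 24.2 TPM (24.4 ± 2.50). Trim30a, which restrains Toll-like receptor signalling, had 25.4, 26.1 and 21.3 TPM (24.3 ± 2.60), and Dtx3l, a ubiquitin ligase, 23.1, 23.2 and 20.5 TPM (22.3 ± 1.55). Parp9, the partner of Dtx3l, stood at 21.9 ± 2.14 TPM. The ranges of all 4 overlapped, and 3 of them, Parp14, Dtx3l and Parp9, lie together at chr16:35832874-35972605. Isg15, the ubiquitin-like modifier itself, was the lowest with 6.71, 3.36 and 4.12 TPM (4.73 ± 1.76) and did not overlap the other 4.

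Of the nucleic acid sensors, Zbp1, which binds left-handed nucleic acid and triggers cell death, had 36.1, 30.1 and 29.8 TPM (32.03 ± 3.56). Ifih1, the sensor of long double-stranded RNA also called MDA5, had 7.75, 6.96 and 5.92 TPM (6.88 ± 0.918), with no overlap between them.

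Among the other induced proteins were the highest members of the set. Sp100, a component of nuclear bodies at chr1:85649988-85709998, had 227, 229 and 216 TPM (224 ± 7.12) and stood above 98.1% of detected protein-coding genes. Ifi27l2a, a small mitochondrial protein, had 104, 96.7 and 76.4 TPM (92.2 ± 14.1), and its neighbour Ifi27 62.4, 54.9 and 58.2 TPM (58.5 ± 3.78). The 3 did not overlap in range. Ifi35 was even across libraries in TPM at 23.6 ± 0.261, the smallest relative SD of TPM of the set at 1.10%. Xaf1, which binds an inhibitor of apoptosis, stood at 19.3 ± 2.16 TPM. Ifi44 was the lowest of the 6 with 3.24, 1.94 and 1.87 TPM (2.35 ± 0.772). Its estimated counts were 99, 63 and 93, so replicate 3 was not the lowest in counts.

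All 8 guanylate-binding proteins exceeded 10 TPM in every library. Gbp3 had 57.4, 57.6 and 48.7 TPM (54.6 ± 5.11), Gbp4 57.9, 50.5 and 46.5 TPM (51.6 ± 5.82), and Gbp9 35.5, 33.02 and 28.3 TPM (32.3 ± 3.67). Gbp3 and Gbp4 overlapped, and both lay above Gbp9. Gbp7 stood at 21.7 ± 2.48 TPM, Gbp6 at 20.8 ± 4.89 TPM, Gbp2 at 15.9 ± 1.91 TPM and Gbp8 at 13.2 ± 0.699 TPM. The lowest was Gbp5, which promotes inflammasome assembly, with 14.0, 10.3 and 10.7 TPM (11.7 ± 2.04). The genes form 2 clusters. Gbp5, Gbp7, Gbp3 and Gbp2 at chr3:142493978-142638008 summed to 104 TPM, and Gbp8, Gbp9, Gbp4 and Gbp6 at chr5:105014150-105293698 to 118 TPM. In the second cluster the annotated spans of Gbp4 and Gbp9 lie 99.8% and 100% within that of Gbp8 on the same strand. Even so, 2.84%, 1.70% and 3.69% of the windows of Gbp4, Gbp9 and Gbp8 occur in other genes. For Gbp6 82.8% occur in the gene Gm43302, so its count depends on how reads were divided. In the first cluster 10.2% of the windows of Gbp7 occur in other genes, mostly Gm43802. Posterior SDs of the 8 genes were nonetheless small, at most 1.40% of the count, for Gbp6.

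The 5 IRG GTPases spanned a wider range than the guanylate-binding proteins. Ifi47, also called Irgd, had 61.1, 64.0 and 61.1 TPM (62.1 ± 1.67). Igtp, also called Irgm3, a regulator of the effector IRG proteins, had 41.1, 34.6 and 31.8 TPM (35.8 ± 4.78), and Irgm1, of the same regulatory class, 28.8, 28.3 and 23.7 TPM (27.0 ± 2.82). These 3 did not overlap. Irgm2 was the lowest detected with 9.60, 10.02 and 9.31 TPM (9.64 ± 0.357), and its annotated span covers 99.2% of that of Igtp on the same strand. Iigp1, an effector IRG protein also called Irga6, had 1.46, 0.63 and 0.59 TPM, below 1 TPM in 2 libraries and far below the other 12 genes of the GTPase group.

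Gene totals do not say which transcript was made. Annotated transcripts are called entries here, and 38 members had more than 1, with the same leading entry in the first tables and in the second quantification for 29 of the 38. Among the 24 members at a mean of 10 TPM or more, 3 were led by an entry not annotated as protein-coding. In Ifi27 the retained-intron entry Ifi27-209 held 43.3% ± 5.48 of the gene's TPM (second quantification 26.6% ± 10.5). In Gbp4 the nonsense-mediated decay entry Gbp4-202 held 37.95% ± 5.37 (45.6% ± 3.42), and in Gbp9 the retained-intron entry Gbp9-203 47.4% ± 2.58 (43.8% ± 2.45). Summed over entries, protein-coding ones held 27.9% ± 4.15 of the TPM of Ifi27, 51.9% ± 5.82 of that of Gbp4 and 51.0% ± 3.72 of that of Gbp9. Counting protein-coding entries alone lowered the level of the GTPase group to 4.15 ± 0.18 and that of the type I group to 2.66 ± 0.28, which left a difference of 1.49 ± 0.14.

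**Figure D4:**
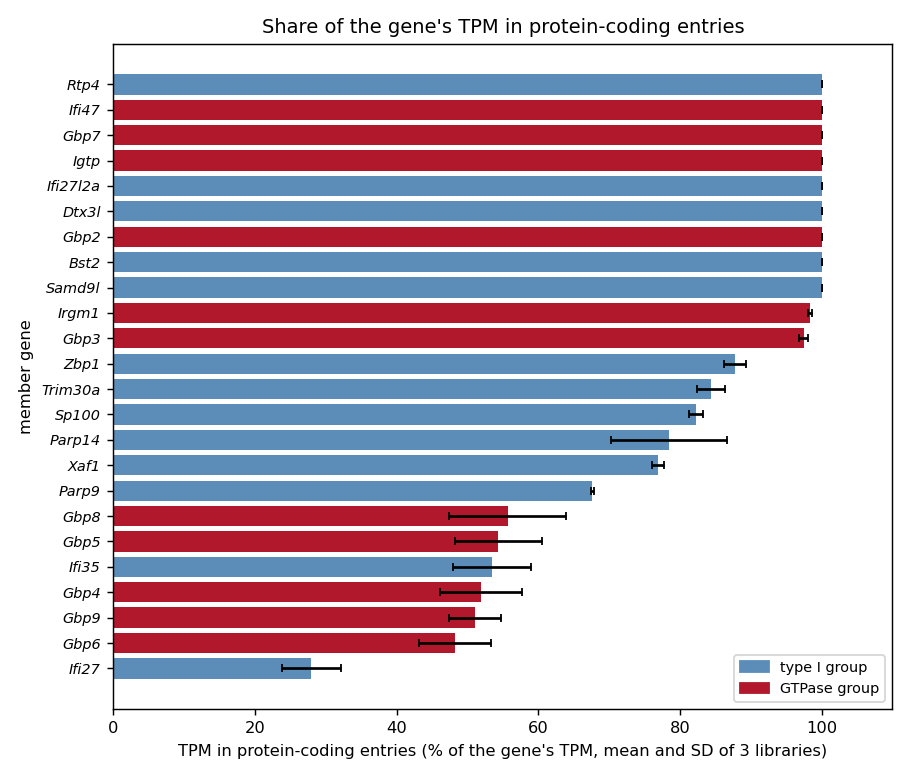
Percent of the gene's TPM in protein-coding entries (horizontal axis, mean and SD of 3 libraries) for the 24 members at a mean of 10 TPM or more, with the type I group in blue and the GTPase group in red. Ifi27 is lowest at 27.9%, and Gbp6, Gbp9 and Gbp4 lie near 50%, at 48.2%, 51.0% and 51.9%.

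For 3 more members at this level the leading entry depended on the quantification. The protein-coding entry Ifi47-201 held 91.1% ± 4.46 of Ifi47 in the first tables and 0.0052% ± 0.00801 in the second, where the protein-coding entry Ifi47-202 held 63.0% ± 14.1. The gene total was less affected, at 62.1 TPM in the first tables and 80.0 in the second, against a median ratio of 1.31 between them over detected protein-coding genes. Gbp8 was led by the protein-coding Gbp8-201 (55.6% ± 8.30) in the first and by the retained-intron Gbp8-203 (53.8% ± 3.02) in the second. Sp100 was led by Sp100-202 (33.4% ± 0.329) and Sp100-204 (30.0% ± 1.25), both protein-coding. Gene totals differed by more than 1.5 times between the quantifications for Iigp1 (2.14 times higher in the second), Rtp4 (1.94) and Mx2 (1.68), and for Iigp1 alone also relative to the median ratio (1.64).

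Most members had their highest value in replicate 1 and their lowest in replicate 3. For this comparison counts relative to library size (CPM), scaled by the trimmed mean of M values (TMM), were used, because TPM in replicate 1 was above replicate 3 for genes at large, by a median of 0.09 on the log2 scale over the 13280 genes tested, whereas that median was -0.003 in TMM-scaled CPM. Of the 44 members with enough counts to test, 29 were highest in replicate 1 (65.9%), 11 in replicate 2 and 4 in replicate 3, while 33.3% of all 13280 genes were highest in replicate 1. Replicate 3 was the lowest for 31 of the 44 (70.5%, against 32.3% of all genes). The median ratio of replicate 1 to replicate 3 was 1.16 over the members and 0.998 over all genes. Both groups took part, with 20 of 31 type I members and 9 of 13 GTPase members highest in replicate 1 and median ratios of 1.16 and 1.15. In TMM-scaled CPM of the second quantification 25 of 44 were highest in replicate 1 (56.8%), beside 32.6% of all genes. There 17 members were highest in replicate 2, and the 25 were 16 of 31 type I and 9 of 13 GTPase members. In TPM of the second quantification 36 of 44 were highest in replicate 1 (81.8%), beside 62.5% of all genes. These counts describe the 3 libraries and carry no test, because libraries of 1 group have no labelled difference and the members were chosen with results known.

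**Figure D5:**
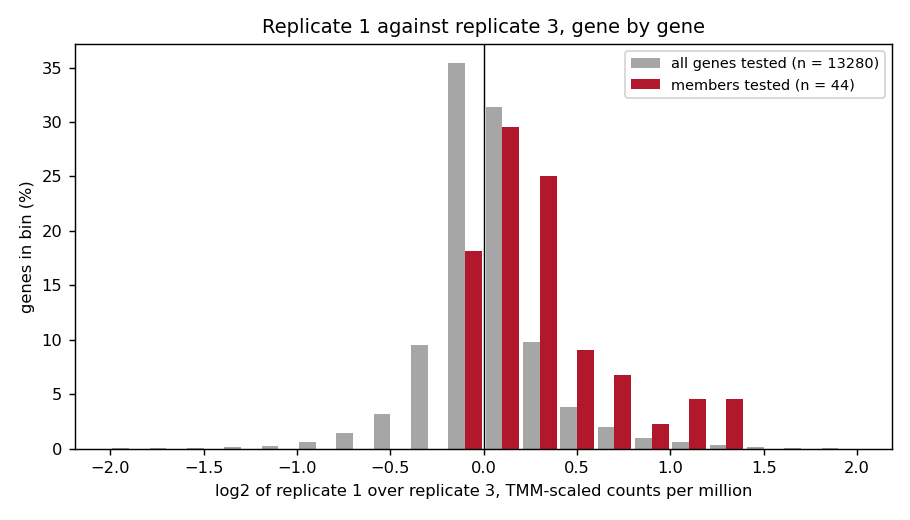
Distribution over genes of the log2 ratio of replicate 1 to replicate 3 in TMM-scaled CPM (horizontal axis), as percent of genes per bin of 0.2, for all 13280 genes tested (grey) and the 44 members tested (red). The grey bars are centred near 0 (median ratio 0.998) and the red bars are displaced to the right (median ratio 1.16).

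By role the displacement was described by the median ratio, with no test between roles. The ratio of replicate 1 to replicate 3 had a median of 1.71 over the 4 IFIT genes, 1.54 over the 2 Mx genes, 1.24 over the 5 OAS and OASL genes and 1.16 over the 8 guanylate-binding proteins, all 8 of which were above 1. It was 1.17 over the 2 nucleic acid sensors and 1.12 over the 5 IRG GTPases. The 7 tested membrane, nucleotide and RNA effectors had 1.11, and so had the 5 genes of ubiquitin-like modification and ADP-ribosylation. The median was 1.00 over the 6 other induced proteins, of which 3, Ifi27, Ifi35 and Ifi44, were highest in replicate 3. For some members the order of the libraries in TMM-scaled CPM was not that in TPM. Among them were Ifi35 (26.2, 27.4 and 28.8 CPM), Ifi44 (5.79, 4.24 and 5.81 CPM) and Cmpk2 (6.90, 7.20 and 7.05 CPM). Among single genes, Ifit3 had 8.65, 5.66 and 3.75 TMM-scaled CPM in replicates 1, 2 and 3, a ratio of 2.31. Oas3 had 34.1, 27.0 and 20.0 CPM, a ratio of 1.70, and Mx1 23.6, 19.5 and 15.7 CPM, a ratio of 1.503. Members with a ratio near 1 included Sp100 (424, 443 and 420 CPM), Samd9l (206, 211 and 201 CPM), Ifi47 (93.2, 101 and 95.9 CPM) and Ifit2 (24.1, 23.6 and 24.8 CPM). The last stands beside Ifit3 on the chromosome and did not share its direction.

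No single member passed the test of spread. An edgeR intercept-only model set the quasi-likelihood dispersion of each gene against the trend at its abundance, with Benjamini-Hochberg adjustment over 13280 genes, and called 0 of 44 members against 75 of all genes (0.565%). At an unadjusted p under 0.05 it had 10 of 44 members (22.7%), against 5.69% of all genes, and DESeq2 marked 2 of 44, Oas3 and Gbp6, as outliers of dispersion, against 0.941% of all genes. Those 10 were Oas3, Gbp6, Ifit3, Gbp5, Mx1, Mx2, Zbp1, Igtp, Ifi27l2a and Gbp7. Each had its highest TPM and its highest CPM of the first tables in replicate 1. In TPM of the second quantification Mx2 (11.4, 15.5 and 13.3) and Ifi27l2a (136, 139 and 99.3) were highest in replicate 2. The smallest adjusted p of edgeR were 0.0875 for Oas3 and 0.0931 for Gbp6, whose TPM of 26.4, 19.0 and 17.1 gave a ratio of 1.39 in CPM. With replicate 2 left out, both passed in edgeR, at adjusted p of 0.0112 and 0.0249, and the adjusted p were 0.800 and 0.978 without replicate 1 and 0.811 and 0.263 without replicate 3. Members at an unadjusted p under 0.05 in edgeR numbered 3 of 44 without replicate 1 (715 of 13469 genes in all), 16 of 45 without replicate 2 (809 of 13636) and 6 of 44 without replicate 3 (781 of 13553). The 2 untested members, Ifitm1 and Ifitm3, had too few counts.

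Most interferon genes were listed at 0, and the receptors were present. In TPM of the first quantification 18 of 21 interferon genes were at 0 in every library, among them Ifnb1 and most Ifna genes, and a count of 0 allows up to 3 counts, or 0.178, 0.200 and 0.185 CPM in replicates 1, 2 and 3 (counting error only). Ifng was the exception with 5.59, 5.39 and 3.99 TPM (4.99 ± 0.872), followed by Ifnz (0.12, 0.10 and 0 TPM) and Ifnab (0.12, 0 and 0 TPM). The second quantification gave Ifna16, listed at 0 in the first, 0.423, 1.58 and 1.27 TPM, and Ifna2 0, 0.083 and 0 TPM. Receptors were led by Ifngr1 (96.6 ± 12.9 TPM), Ifnar1 (45.8 ± 2.60 TPM), Ifnar2 (25.2 ± 1.55 TPM) and Il10rb (23.8 ± 0.854 TPM), with Ifngr2 at 16.5 ± 2.08 TPM and the lambda receptor Ifnlr1 at 0.01, 0 and 0 TPM. All 5 detected receptor genes exceeded 10 TPM.

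Downstream, all 12 kinases, STATs and IRFs were detected. Jak1 had 185, 186 and 179 TPM (183 ± 4.08), and the transcription factors Irf1 172, 162 and 140 TPM (158 ± 16.5) and Irf2 54.9, 61.1 and 58.5 TPM (58.1 ± 3.11). The lowest were Irf8 (8.23 TPM) and Irf5 (1.64 TPM), factors best known from myeloid and B cells. Sensors and adaptors were led by Ikbke (113 ± 1.98 TPM), Tmem173, which encodes STING (54.3 ± 2.97 TPM), Ddx58, which encodes RIG-I (35.9 ± 1.61 TPM) and Tbk1 (25.3 ± 1.75 TPM), and were lowest at Tlr9 (1.05 TPM) and Tlr3 (0.113 TPM). Of the negative regulators, Ptpn6 (73.1 ± 4.99 TPM), Pias1 (35.5 ± 2.47 TPM), Irf2bp2 (30.9 ± 1.18 TPM) and Socs3 (21.1 ± 1.40 TPM) led, while Usp18, the protease that removes Isg15, had 9.12 ± 1.59 TPM and Socs1 8.53 TPM.

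The wider set of 76 other interferon-induced genes had 65 detected (85.5%, against 44.7% of protein-coding genes) and 50 at 10 TPM or more (65.8%, against 25.4%). This set was led by Ms4a4b (380 ± 19.5 TPM), Ly6e (171 ± 15.6 TPM), Samhd1 (141 ± 5.05 TPM) and Tapbp (138 ± 14.3 TPM). It was lowest at Oas1g (0.107 TPM) and Ifi44l, listed at 0. In TMM-scaled CPM 48 of its 70 tested genes were highest in replicate 1, beside 33.3% of all genes, and the median ratio of replicate 1 to replicate 3 was 1.10, against 8 of 12 and 1.13 for the kinases, STATs and IRFs, 3 of 8 and 0.998 for the negative regulators and 1 of 5 and 0.974 for the receptors. Of the 105 tested genes of these pathway lists, edgeR called 0 (0.565% of all genes), with 13 at an unadjusted p under 0.05 (12.4%, against 5.69% of all genes), and DESeq2 marked 3 as outliers of dispersion (0.941% of all genes). Gvin1, a very large interferon-induced GTPase, came closest in edgeR with an adjusted p of 0.0547 at 40.2, 29.1 and 29.0 TPM.

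Markers of other cells did not share one order of the libraries. B cell markers summed to 16.6, 24.99 and 12.5 TPM in replicates 1, 2 and 3 and erythroid markers to 54.2, 97.1 and 42.6 TPM, both highest in replicate 2, with Hba-a2 passing the test (adjusted p = 0.0321 in edgeR). Its adjusted p in edgeR was 0.122 with a non-robust trend, 0.0811 in the second quantification, 0.996 without replicate 2 and 0.0606 without replicate 3. At an unadjusted p under 0.05 in edgeR were 6 of 8 tested B cell markers and 4 of 4 erythroid markers, against 5.69% of all genes. So were 2 of 9 monocyte and macrophage and 1 of 6 plasmacytoid dendritic cell markers, and 0 of the 4 remaining lists. Natural killer cell markers summed to 32.6, 24.4 and 26.7 TPM, conventional dendritic cell markers to 3.97, 3.42 and 1.99 TPM and monocyte and macrophage markers to 42.2, 31.0 and 37.8 TPM. Plasmacytoid dendritic cell markers summed to 54.8, 53.3 and 49.4 TPM, neutrophil markers to 6.87, 6.01 and 6.16 TPM and markers of stroma and endothelium to 55.6, 51.55 and 51.7 TPM. These 6 of 8 lists were highest in replicate 1, the library where most members were highest. In TPM, however, 48.1% of all 13280 genes tested were highest in replicate 1. T cell markers summed to 3072, 3031 and 2829 TPM, also highest in replicate 1. Mki67 and Top2a, genes of dividing cells chosen after their values were seen, had 6.27, 4.57 and 2.74 TPM and 11.7, 7.5 and 5.28 TPM. The part of these cells in the members' pattern was not tested.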

How the data were processed

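Total RNA with spike-ins was sequenced from 3 libraries of splenic T cells with a directional kit, per the labels' protocols. Per the file headers, a gene table and a first transcript table give estimated counts, FPKM and TPM with posterior SDs, and each entry's share of its gene in percent, from transcriptome alignments to mm10 with GENCODE M21, per the deposited README. A second transcript table, the second quantification, gives TPM and estimated counts as deposited, summed here per gene. The aligner and the quantifier were not given in the sources used here. Samples carry the replicate numbers of the labels. The 26248 entries named by a number only and the 96 spike-ins were left out of tests and library sizes. They held at most 5.58e-05% and 0.318% of the counts.

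Members and lists were chosen with earlier results of these data known. Of 251 listed symbols, 1, Mnda, had no match, and values of 1 pathway gene are not reported here. Every member is named with a value. Named in full are the 3 highest and the lowest detected of each role, and of other lists up to 4 highest and 2 lowest. Detection means 1 TPM or more in every library. Spread was tested in edgeR 4.0.16 on rounded counts (filterByExpr, TMM, robust trend, F test, Benjamini-Hochberg at 0.05), after a test on simulated data, with DESeq2 1.42.0 as an alternative (R 4.3.3, Python 3.11.15). Read sharing is the share of 101-base windows of the leading entry found in other genes. Alternatives were other units and quantification, pseudocount, filters, thresholds and each replicate left out, and, chosen after seeing the data, protein-coding entries alone and the scale of the comparison between libraries.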

Additional observations from a re-analysis of the deposited data

How the results depend on the processing

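The GTPase group stood above the type I group under every alternative run. On log2(value + 1) the difference was 1.43 in the second quantification, 1.49 in posterior mean TPM, 2.03 in TMM-scaled CPM, which do not divide by length, 1.68 with members at a mean of 1 TPM or more, 1.86 with IRG GTPases alone and 1.49 with protein-coding entries, and it was 1.72 with a pseudocount of 0.1. Without 1 replicate it was 1.57 to 1.64. The type I level was 3.31 in the second quantification, 4.08 in CPM and 2.66 with protein-coding entries, and the GTPase level 6.11 in CPM and 4.15 with protein-coding entries. Detected members numbered 38 to 45. The cause of these shifts was not tested.

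Members called for spread numbered 3 of 46 with no filter (Oas3, Gbp6 and Ifit3) and 2 of 44 with DESeq2's marking. Without replicate 2 they were 2 of 45, Oas3 and Gbp6, and they were 0 in the other alternatives. Genes called in all were 303 of 22813 with no filter, 28 of 13280 with a non-robust trend and 125 of 13280 with DESeq2's marking. They were 43 of 13469 without replicate 1, 85 of 13636 without replicate 2 and 35 of 13553 without replicate 3. Members highest in replicate 1 numbered 25 to 36 of 44 over 7 scales, beside 32.6% to 62.5% of all genes (the 36 beside 62.5%), and members lowest in replicate 3 28 to 36, beside 32.3% to 47.5%. TPM of members moved by over 1 SD for 31 of 46 in the second quantification, where 45 were higher. Genes at large were also higher there, by a median ratio of 1.31 over detected protein-coding genes. In posterior mean TPM 5 of 46 members moved by over 1 SD. The share of all genes that moved was not computed.

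No paired analysis was possible because all samples form 1 group. With 15.04 to 16.93 M counts per library, members near 1 TPM rest on few reads (Ifitm1 had 18, 8 and 7 counts), and small differences among them were not detectable at this depth.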
